A study of Mus musculus with 6 samples.

Results

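Creatine cycling is followed here with 7 chosen genes, Ckb, Ckmt1, Ckmt2, Gatm, Gamt, Slc6a8 and Alpl. They were taken by name from the deposited table of transcript abundance. All 7 had a RefSeq row among 22466 gene symbols with such rows, and the row with the highest mean over all cultures stands for each gene. RNA was sequenced from primary brown adipocytes in 6 independent cultures, with replicates 10, 11 and 12 of WT and replicates 13, 14 and 15 of Ucp1-KO origin, grown from precursors of interscapular brown fat of young male mice of the 129SvEvS1 strain. WT cells carry intact Ucp1, the gene of the mitochondrial uncoupling protein, and UCP1(-/-) cells lack the protein. Both genotypes received the same adipogenic hormones with rosiglitazone, and the number of animals behind each culture was not given in the sources used here.

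Creatine is made from arginine and glycine in a pair of steps, of which Gatm catalyses the former and Gamt the latter, or it is taken up from the medium through the carrier Slc6a8. Creatine kinases move a phosphate between ATP and creatine, in the cytosol by the brain-type enzyme Ckb and in the mitochondrial intermembrane space by Ckmt1 and Ckmt2. In futile creatine cycling, a route of heat production proposed for thermogenic fat that does not need UCP1, phosphocreatine is hydrolysed without useful work, and the tissue-nonspecific alkaline phosphatase Alpl has been put forward as the phosphatase. The comparison asks whether cells without UCP1 contain these transcripts at another level than WT cells.

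Abundance is given in RPKM, reads scaled to the length of a transcript and to the size of the library, so that levels of different genes can be set side by side. From the step between the lowest values, totals of 14989603 to 17727653 reads per culture and the read number behind each value could be recovered. A floor of 3 reads was used, which covers counting error only. Ucp1 RNA was lower in all Ucp1-KO cultures (306.6 to 408.7 RPKM) than in all WT cultures (981.2 to 1775 RPKM). According to the authors, the knockout locus keeps some transcription, of a shortened RNA with exons missing from which no protein is made. The 6 adipocyte markers Fabp4, Adipoq, Plin1, Pparg, Cidea and Cox7a1 were abundant in every culture, with sums between 29520 and 33395 RPKM that consist mostly of Fabp4. Markers of other cells were present as well, with sums over all cultures from 40.8 to 780.5 RPKM for macrophages (4 of 5 listed), 2.76 to 33.2 RPKM for endothelial cells, 615.3 to 1672 RPKM for stromal cells, 3.53 to 20.3 RPKM for skeletal muscle, 1.002 to 2.16 RPKM for osteoblasts and 7.43 to 11.2 RPKM for glia.

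Among the kinases, the cytosolic form was present and both mitochondrial forms were at or below the floor. Their promoters are shown because they stand for this contrast. RefSeq windows were found for 6 of the 7 genes (8 windows), Slc6a8 being the gene without a window. Printed are the 250 bases before the transcript start on GRCm38.p6, 5′ to 3′ on the strand of the gene, with every TATAAA and CCAAT in capitals, also where the letters of the opposite strand (TTTATA and ATTGG) match.
Ckb (chr12:111672339-111672588, reverse strand): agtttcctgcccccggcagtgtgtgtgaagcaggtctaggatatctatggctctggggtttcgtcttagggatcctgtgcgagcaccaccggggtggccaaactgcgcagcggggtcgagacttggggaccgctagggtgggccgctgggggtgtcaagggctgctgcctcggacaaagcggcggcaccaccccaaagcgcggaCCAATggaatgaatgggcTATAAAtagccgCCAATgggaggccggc
Ckmt1 (chr2:121358360-121358609, forward strand): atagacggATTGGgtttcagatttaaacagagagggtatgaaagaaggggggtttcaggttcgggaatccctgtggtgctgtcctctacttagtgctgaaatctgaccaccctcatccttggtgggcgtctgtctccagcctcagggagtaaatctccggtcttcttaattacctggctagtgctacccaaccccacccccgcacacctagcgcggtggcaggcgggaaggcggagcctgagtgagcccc
Ckmt2 (chr13:91876886-91877135, reverse strand): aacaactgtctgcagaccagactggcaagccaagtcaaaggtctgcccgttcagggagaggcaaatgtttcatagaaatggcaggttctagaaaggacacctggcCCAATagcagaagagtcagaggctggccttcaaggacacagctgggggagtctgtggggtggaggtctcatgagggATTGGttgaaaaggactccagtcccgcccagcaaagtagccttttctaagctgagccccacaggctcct
The window of Ckb held 1 TATAAA, 2 CCAAT and 16 CG pairs. That of Ckmt1, the window in front of the GENCODE transcript paired with its RefSeq row, held 0 TATAAA, 1 CCAAT and 9 CG pairs, and the other window of this gene, not printed, held 1 TATAAA, 0 CCAAT and 4 CG pairs. Ckmt2 had 0 TATAAA, 2 CCAAT and 2 CG pairs. Of 32851 windows of the same length, 12.4% held a TATAAA and 33.8% a CCAAT, and the median number of CG pairs was 6. The motifs do not overlap each other in these windows, and a match describes the letters only.

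Ckb lies on chromosome 12 of GRCm38 (111669355 to 111672338, reverse strand) and encodes the cytosolic creatine kinase. Its abundance was 8.56, 12.8 and 9.85 RPKM in WT replicates 10, 11 and 12, and 6.54, 8.48 and 7.49 RPKM in Ucp1-KO replicates 13, 14 and 15. These values rested on 216, 316 and 258 reads in WT and on 156, 216 and 166 reads in Ucp1-KO cultures, at a transcript length of 1478 bases. A length of 739 bases gives whole reads as well, with 78 to 158 reads per culture, and 1478 was taken as nearest the GENCODE transcript of 1472 bases. WT replicate 11 was the highest. The lowest WT culture lay just above the highest Ucp1-KO culture, so that the genotypes did not overlap. These cultures, WT replicate 10 and Ucp1-KO replicate 14, had the same 216 reads and were apart only through their library totals. WT cultures averaged 10.4 ± 2.18 RPKM and Ucp1-KO cultures 7.50 ± 0.972 RPKM (SD, n = 3 each), or 72.1% of the WT mean.

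The log2 fold change of Ckb was -0.41 on the scale of log2(RPKM + 1), with a standard error of 0.16 and a 95% interval from -0.80 to -0.03. In limma over all 16865 transcripts tested, the unadjusted p was 0.0381 and the Benjamini-Hochberg adjusted p was 0.868, so Ckb did not pass the threshold of 0.05. An exact two-sided permutation test gave p = 0.1, the smallest p that 3 against 3 cultures allow. The difference was smaller without WT replicate 11 (log2 fold change -0.27, limma unadjusted p = 0.115, adjusted p = 0.999), and the unadjusted p of limma was also above 0.05 without WT replicate 12 (0.0691), Ucp1-KO replicate 13 (0.108) or Ucp1-KO replicate 15 (0.0734). WT replicate 11 also had the highest sums of stromal and endothelial markers, 1672 and 33.2 RPKM. Of the 8 stromal markers 7 were tested, and 2 of these were like Ckb and Slc6a8 lower in every Ucp1-KO than in every WT culture (as were 5.15% of all transcripts tested), namely Dcn (72.3 ± 18.6 RPKM in WT against 39.2 ± 7.54 RPKM, SD, n = 3 each, limma adjusted p = 0.868) and Pdgfra (20.7 ± 1.64 against 16.4 ± 2.84 RPKM, adjusted p = 0.868). The other stromal markers tested overlapped between genotypes. Of these, Ly6a had a higher mean in Ucp1-KO cells (122.0 RPKM, against 113.9 RPKM in WT) and the rest a lower mean. The stromal sums overlapped too, with 716.4, 1672 and 1005 RPKM in WT replicates 10, 11 and 12. In Ucp1-KO replicates 13, 14 and 15 they were 976.7, 907.9 and 615.3 RPKM. The part of stromal and endothelial cells in the differences of Ckb and Slc6a8 was not tested. RNA of a bulk culture does not tell fewer cells of a kind from less RNA per cell.

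The mapping bears on the level of Ckb. Of the 1423 stretches of 50 bases (the read length) in its GENCODE transcript, 312 or 21.9% also occur in the transcripts of 3 processed pseudogenes elsewhere in the genome, Ckb-ps1, Ckb-ps2 and Gm12892. The authors kept uniquely identified reads only. If these stretches gave no reads at all, the level over the remaining sequence would be 1.28-fold higher, which would put WT cells at 13.3 RPKM and Ucp1-KO cells at 9.61 RPKM, with the same ratio between genotypes. The other 6 genes shared 0 such stretches with a gene elsewhere in the transcriptome. All 4 rows of Ckb, from RefSeq and from cDNA clones, had every Ucp1-KO culture below every WT culture, but these rows can count the same reads.

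Ckmt1, the ubiquitous mitochondrial creatine kinase on chromosome 2 (121357773 to 121363737, forward strand), was close to absent from the data. It had 0, 3 and 2 reads in WT and 1, 1 and 1 reads in Ucp1-KO replicates, or 0, 0.113 and 0.0710 RPKM and 0.0390, 0.0365 and 0.0420 RPKM. No culture exceeded the floor of 3 reads, which equals between 0.106 and 0.126 RPKM for this transcript. Over all 6 cultures 8 reads were found, an exact 95% Poisson interval of 3.45 to 15.8 reads or 0.0218 to 0.0993 RPKM. Of its 11 rows in all annotations 1 was at 0 throughout, and the highest single value of any row was 0.256 RPKM.

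Ckmt2, the sarcomeric mitochondrial creatine kinase of striated muscle on chromosome 13 (91853386 to 91876923, reverse strand), had 1 read in WT replicate 10, 1 read in Ucp1-KO replicate 13 and 0 reads in the other cultures. These 2 reads in total give an exact 95% Poisson interval of 0.242 to 7.22 reads, or 0.00163 to 0.0487 RPKM. A difference between the genotypes was not detectable for Ckmt1 or Ckmt2 at this depth, and both fell under the mean of 0.5 RPKM needed for the test. Muscle-type creatine kinase Ckm was low as well, at 0.0552 ± 0.0956 RPKM (WT) and 0.0704 ± 0.0844 RPKM (Ucp1-KO, SD, n = 3 each). Ckm was listed at 0 in Ucp1-KO replicate 13, the culture with the highest sum of the 10 muscle markers (20.3 RPKM).

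Per length, Ckb was 178-fold more abundant than Ckmt1 over all cultures (95% interval 90.3 to 414, exact for counting error only), and its ratio to Ckmt2 was 668 with an interval from 184 to 5518. With 739 bases for Ckb these intervals were 90.05 to 415 and 184 to 5524. Ckb made up between 98.8% and 99.6% of the summed RPKM of the 3 kinases in single cultures of either genotype. The rest came from 0 to 3 reads per gene and culture, too few to compare the genotypes.

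**Figure D1:**
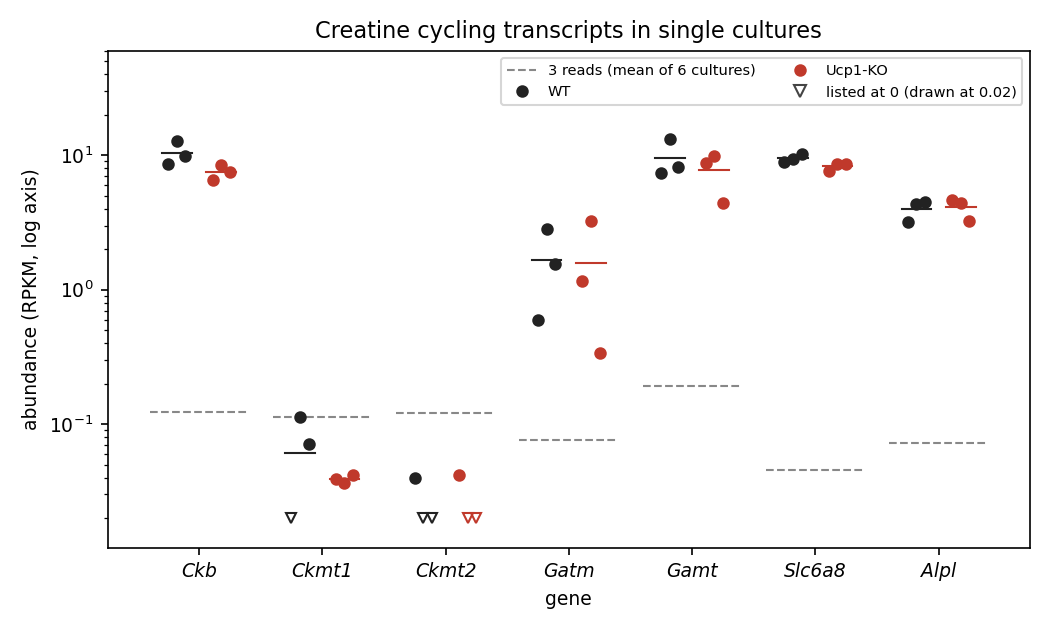
Abundance of the 7 creatine cycling transcripts in RPKM on a log axis, with 1 point for each culture (black WT, red Ucp1-KO), short lines for group means and dashed lines for the level of 3 reads. Open triangles are values listed at 0, and the mitochondrial kinases Ckmt1 and Ckmt2 lie at or below the dashed line while the other 5 genes lie above it in all 6 cultures.

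Creatine uptake was represented by Slc6a8, the sodium- and chloride-dependent creatine carrier of the plasma membrane on chromosome X (73673133 to 73682502, forward strand). It had 8.94, 9.41 and 10.2 RPKM in WT and 7.70, 8.56 and 8.63 RPKM in Ucp1-KO replicates. All Ucp1-KO cultures lay below all WT cultures, as for Ckb, and the cultures of a genotype were close to each other. The means were 9.50 ± 0.614 and 8.29 ± 0.519 RPKM (SD, n = 3 each), a log2 fold change of -0.18 with a standard error of 0.10 and a 95% interval from -0.40 to 0.05. Slc6a8 did not pass the test (limma unadjusted p = 0.109, adjusted p = 0.871, and exact two-sided permutation test p = 0.1). All 14 rows of Slc6a8 had a lower mean in Ucp1-KO cells and 6 of them did not overlap, and these rows can count the same reads.

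Gatm, the arginine:glycine amidinotransferase of mitochondria on chromosome 2 (122594473 to 122611277, reverse strand), was the scarcest of the 5 genes tested and the one that varied most. WT replicates 10, 11 and 12 had 0.596, 2.82 and 1.56 RPKM from 24, 111 and 65 reads. Ucp1-KO replicates 13, 14 and 15 had 1.16, 3.22 and 0.340 RPKM from 44, 131 and 12 reads. The highest and the lowest of all cultures were both Ucp1-KO cultures, a 9.49-fold range, and the genotypes overlapped fully. WT cultures averaged 1.66 ± 1.12 RPKM and Ucp1-KO cultures 1.57 ± 1.49 RPKM (SD, n = 3 each). The log2 fold change of -0.12 had a 95% interval from -1.24 to 1.002 (limma adjusted p = 0.976), which is too wide to tell a change of either direction from none. Its sign turned without WT replicate 11 (0.19) and without Ucp1-KO replicate 15 (0.27), and without Ucp1-KO replicate 14 the value was -0.56.

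Gatm moved with the macrophage and endothelial sums. Ucp1-KO replicate 14, highest in Gatm, also had the highest macrophage sum with 780.5 RPKM. WT replicate 11 followed in both, with a macrophage sum of 167.4 RPKM, and Ucp1-KO replicate 15 was lowest in both, with 40.8 RPKM. Ucp1-KO replicate 13 and WT replicates 12 and 10 lay between, at 156.2, 102.1 and 53.7 RPKM. The endothelial sum was highest in WT replicate 11 (33.2 RPKM), then in Ucp1-KO replicate 14 (15.6 RPKM) and WT replicate 12 (15.3 RPKM), and at most 6.69 RPKM in the other cultures. In Ucp1-KO replicate 14 the muscle and osteoblast sums were the lowest of all cultures (3.53 and 1.002 RPKM), and its stromal sum was 907.9 RPKM. In the other cultures the stromal sum had the same order as Gatm, with 1672, 1005, 976.7, 716.4 and 615.3 RPKM in WT replicates 11 and 12, Ucp1-KO replicate 13, WT replicate 10 and Ucp1-KO replicate 15. The part of macrophages, endothelial and stromal cells in the Gatm values was not tested. Among the adipocyte markers, Cidea ranged from 615.1 to 1371 RPKM and Adipoq from 1135 to 1714 RPKM over the same cultures.

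Gamt, the guanidinoacetate methyltransferase that completes creatine synthesis, lies on chromosome 10 (80258151 to 80261025, reverse strand). It had 7.38, 13.1 and 8.13 RPKM in WT and 8.79, 9.96 and 4.45 RPKM in Ucp1-KO replicates, with WT replicate 11 highest and Ucp1-KO replicate 15 lowest. The genotypes overlapped, with means of 9.55 ± 3.13 and 7.73 ± 2.90 RPKM (SD, n = 3 each). The log2 fold change was -0.30 with a 95% interval from -1.03 to 0.44 (limma adjusted p = 0.904), and it was -0.07 without WT replicate 11 and 0.01 without Ucp1-KO replicate 15. From high to low, the cultures stood in the order WT replicate 11, Ucp1-KO replicates 14 and 13, and WT replicates 12 and 10, with Ucp1-KO replicate 15 last, which differs from that of the macrophage sums only in the order of the highest pair. The part of these cells in the Gamt values was not tested. Per length, Gamt exceeded Gatm in all 6 cultures, by 3.09-fold in Ucp1-KO replicate 14 to 13.1-fold in Ucp1-KO replicate 15. The ratio averaged 7.42 ± 4.30 for WT and 7.93 ± 5.02 for Ucp1-KO cultures (SD, n = 3 each), which differed by less than the spread of the cultures.

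**Figure D2:**
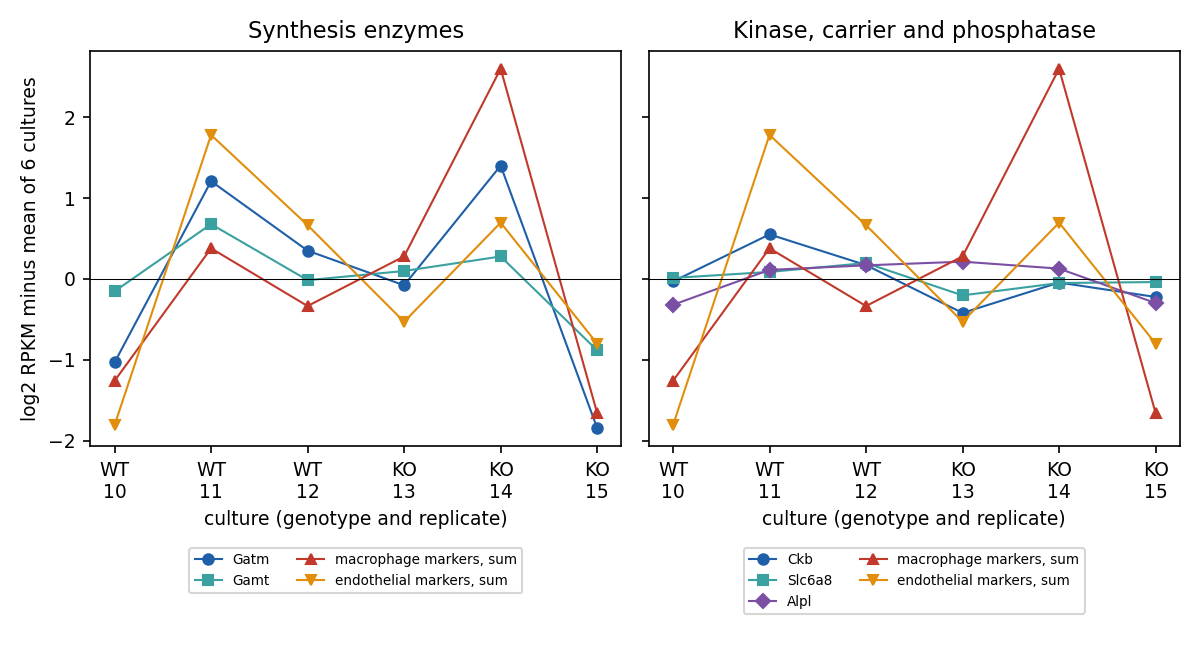
Log2 RPKM of each gene and of the summed marker lists in the 6 cultures, minus its mean over the cultures, with synthesis enzymes at the left and Ckb, Slc6a8 and Alpl at the right (lines only join the values of a gene or list, since cultures have no order). Gatm is high in WT replicate 11 and Ucp1-KO replicate 14 and low in WT replicate 10 and Ucp1-KO replicate 15, as are the macrophage and endothelial sums, and Gamt is highest in WT replicate 11 and lowest in Ucp1-KO replicate 15.

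Alpl encodes the tissue-nonspecific alkaline phosphatase, which is anchored to membranes and also needed for bone mineralisation, on chromosome 4 (137741731 to 137796384, reverse strand). Its values were 3.21, 4.33 and 4.51 RPKM in WT and 4.65, 4.38 and 3.26 RPKM in Ucp1-KO replicates, from 123 to 201 reads. Both genotypes covered nearly the same range, with means of 4.02 ± 0.702 and 4.10 ± 0.737 RPKM (SD, n = 3 each). The log2 fold change was 0.02 with a standard error of 0.16 and a 95% interval from -0.36 to 0.40 (limma adjusted p = 0.988), and its sign turned when WT replicate 10, Ucp1-KO replicate 13 or Ucp1-KO replicate 14 was left out (-0.10, -0.06 and -0.02). Of the osteoblast markers, Runx2 had between 0.900 and 1.82 RPKM, Sp7 had between 0.0876 and 0.461 RPKM, and Bglap, Ibsp and Dmp1 were listed at 0 in 3 or more cultures each and at 0.167 RPKM at most.

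In order of level, Ckb, Gamt and Slc6a8 came at the top in WT cells with means from 9.50 to 10.4 RPKM, and their cultures overlapped. In Ucp1-KO cells the same 3 genes lay between 7.50 and 8.29 RPKM in the order Slc6a8, Gamt, Ckb, and again overlapped. With the stretches shared with pseudogenes left out as above, Ckb would lead in Ucp1-KO cells too (9.61 RPKM). Alpl followed in both genotypes. It was apart from all genes above it in WT cells, but in Ucp1-KO cells it overlapped Gamt, whose lowest culture had 4.45 RPKM. Gatm was below Alpl in all 6 cultures, and Ckmt1 and Ckmt2 were last. Among the RefSeq transcripts above 0, Ckb stood at the 70.1th percentile in WT and the 63.1th in Ucp1-KO cells, Slc6a8 at the 68.5th and 65.5th, Gamt at the 68.5th and 63.8th, Alpl at the 49.9th and 50.9th, and Gatm at the 36.6th and 36.4th.

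As a group, 5 of the 7 genes were abundant enough to be tested and 0 of them had a limma adjusted p under 0.05, as had 0 (0%) of all 16865 transcripts. Ucp1 itself, with a log2 fold change of -1.78 (95% interval -2.34 to -1.21, limma unadjusted p = 0.000157), had an adjusted p of 0.868, so an adjusted p above the threshold does not show that a gene was unchanged. The authors compared the genotypes with DESeq2 instead. Their list of differentially expressed genes held Ucp1 and none of the 7 creatine genes. At an unadjusted p under 0.05 there was 1 of the 5, Ckb, which had the lower level in Ucp1-KO cells, against 5.54% of all transcripts tested in either direction and 3.24% lower in Ucp1-KO cells. With limma-voom on the recovered read numbers Ckb was no longer under 0.05 (unadjusted p = 0.0531, adjusted p = 0.877), leaving 0 of the 5, while 883 of the 16865 transcripts were (364 higher and 519 lower in Ucp1-KO cells). Ckb and Slc6a8, 2 of the 5, did not overlap between genotypes and were lower in Ucp1-KO cells, as were 5.15% of all transcripts. Over all transcripts 6.04% were apart with higher levels in Ucp1-KO cells, which 0 of the 5 were, and 11.2% in either direction. The median log2 fold change was -0.18, with 4 of 5 negative. Over all transcripts the median was -0.0016, with 8496 of 16865 negative. The 95% intervals reached down to -0.80 for Ckb, -1.24 for Gatm, -1.03 for Gamt, -0.40 for Slc6a8 and -0.36 for Alpl, and up to -0.03, 1.002, 0.44, 0.05 and 0.40 in the same order.

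**Figure D3:**
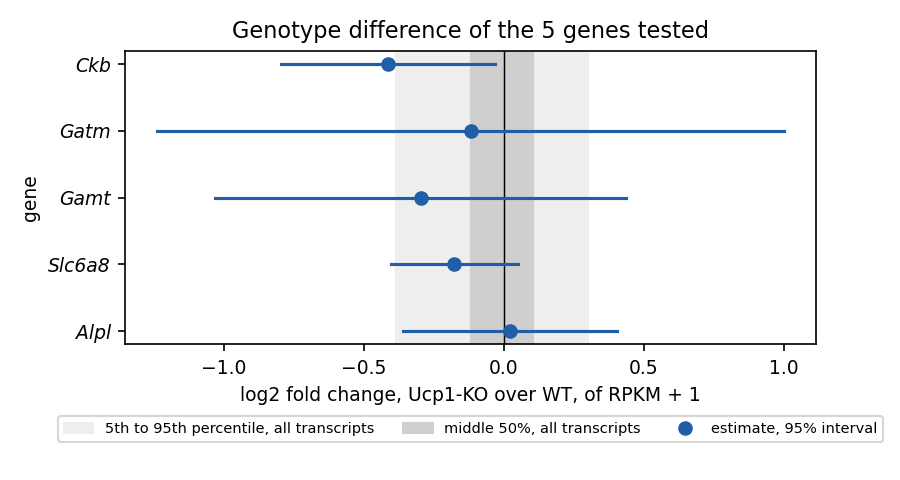
Log2 fold change of Ucp1-KO over WT cells on log2(RPKM + 1) for the 5 genes tested, as points with 95% intervals from limma (n = 3 each), over bands for the 25th to 75th and the 5th to 95th percentile of all 16865 transcripts. Ckb at -0.41 lies beyond the lower end of the wide band (-0.39), and the intervals of the other 4 genes include 0.

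Creatine export and entry by other carriers were little represented. Slc16a12, which can release creatine, had 0.311 ± 0.0734 and 0.407 ± 0.160 RPKM, and Slc22a15, an organic cation carrier, had 0.381 ± 0.0890 and 0.353 ± 0.0261 RPKM (WT, then Ucp1-KO, SD, n = 3 each). With Ckm, 0 of these 3 genes reached the mean needed for the test.

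The supply of arginine, glycine and methyl groups was followed with 13 genes, of which 8 could be tested. An adjusted p under 0.05 was reached by 0 of the 8. Oat, the mitochondrial ornithine aminotransferase that uses up the ornithine released by Gatm, was the gene of this list with genotypes apart (1 of 8 tested, where 11.2% of all transcripts were apart), with 94.5, 109.6 and 96.9 RPKM in WT and 78.8, 79.0 and 87.1 RPKM in Ucp1-KO replicates (log2 fold change -0.29, standard error 0.10, limma unadjusted p = 0.0193, adjusted p = 0.868). Mat2a and Mat2b, subunits of the enzyme that makes the methyl donor for Gamt, had 43.3 ± 1.64 and 43.1 ± 2.27 RPKM and 47.7 ± 1.40 and 50.5 ± 5.90 RPKM (WT, then Ucp1-KO, SD, n = 3 each). The liver form Mat1a had 1 read in all cultures together. Of the list, 3 genes had positive and 5 negative log2 fold changes with a median of -0.0089.

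The exchange of ATP and ADP across the mitochondrial membranes and the adenylate kinases were followed with 9 genes, all of them tested. Here too 0 of 9 had an adjusted p under 0.05, and the median log2 fold change was -0.0054, with 4 genes above 0 and 5 below. Ak1, the cytosolic adenylate kinase, was the gene of this list that did not overlap between genotypes (1 of 9 tested, against 11.2% of all transcripts), with 30.1, 41.0 and 38.4 RPKM in WT and 26.5, 27.5 and 27.3 RPKM in Ucp1-KO replicates (log2 fold change -0.41, standard error 0.12, limma unadjusted p = 0.0146, adjusted p = 0.868). Per length, Ak1 was 3.54 ± 0.349 times as abundant as Ckb in WT cultures and 3.64 ± 0.404 times in those of Ucp1-KO origin (SD, n = 3 each), which differed by less than their SDs. The adenine nucleotide translocase Slc25a4 had 419 ± 21.03 and 402 ± 66.5 RPKM (WT, then Ucp1-KO, SD, n = 3 each). Its ratio to Ckb per length was 41.2 ± 7.16 for WT and 53.6 ± 7.13 for Ucp1-KO cultures (SD, n = 3 each), a larger difference than either SD that was not tested, and it was at least 33.0 in every culture.

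Of 6 relatives and partners of Alpl, 3 were tested and 0 had an adjusted p under 0.05. The intestinal and germ cell phosphatase genes Alpi, Alppl2 and Akp3 had 0 reads in every culture, so that Alpl was the only alkaline phosphatase transcript found among the 4 genes looked at. Phospho1, a soluble phosphatase that acts beside Alpl in mineralising tissue, was abundant, at 209 ± 8.40 RPKM (WT) and 205 ± 18.9 RPKM (Ucp1-KO, SD, n = 3 each, limma adjusted p = 0.972). Its ratio to Alpl per length ranged from 40.2 to 68.9 over the cultures. The GENCODE transcript of Phospho1 shares 86.2% of its stretches of 50 bases with transcripts of the overlapping genes Abi3 and Zfp652, so reads of these genes cannot be told from its own there. Enpp1, which makes the pyrophosphate that Alpl degrades, had 1.98 ± 0.798 and 1.0998 ± 0.672 RPKM (WT, then Ucp1-KO, SD, n = 3 each, limma adjusted p = 0.871).

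**Figure D4:**
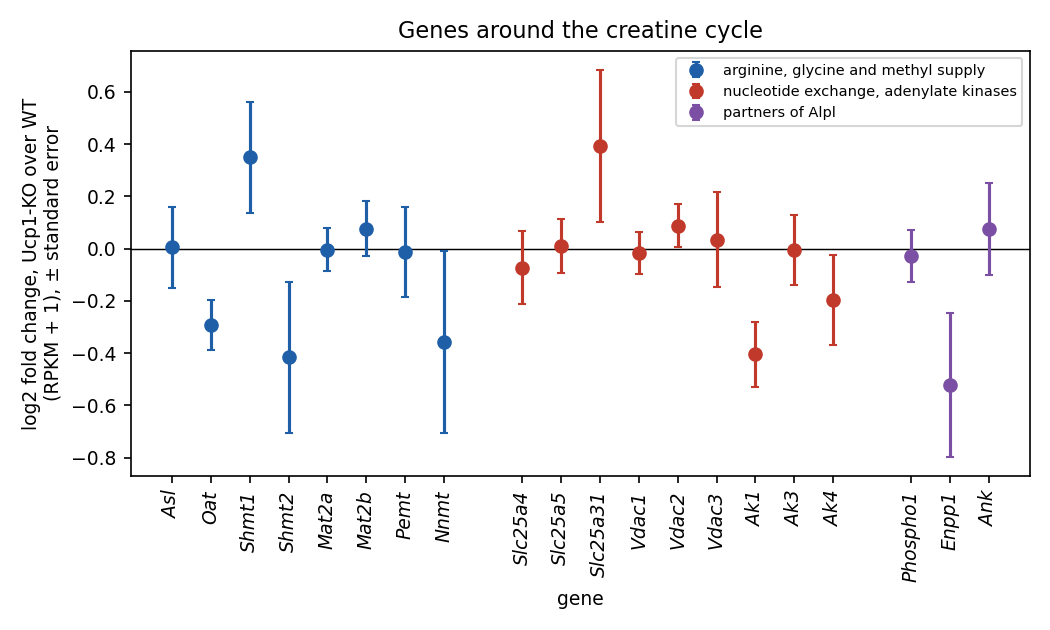
Log2 fold change of Ucp1-KO over WT cells on log2(RPKM + 1) with standard errors (limma, n = 3 each) for the 20 tested genes of substrate and methyl supply (blue), nucleotide exchange and adenylate kinases (red) and partners of Alpl (purple). Oat at -0.29 and Ak1 at -0.41 are the 2 of 20 genes whose genotypes do not overlap, against 11.2% of all transcripts, and Nnmt has the widest error.

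The genes most like each creatine gene over the 6 cultures were taken as the pair with the highest Pearson correlation of log2(RPKM + 1) among 7519 genes with a mean of at least 5 RPKM, which describes these 6 cultures and is not a test. For Ckb these were Rela, a subunit of NF-kB (r = 0.991), and Phax, an adaptor of RNA export (r = 0.988). For Gatm they were Fxyd5, a modulator of the sodium pump, and the lysosomal fucosidase Fuca1 (r = 0.998 and 0.990). Gamt was matched by Tbc1d9b and the clathrin adaptor subunit Ap2s1 (r = 0.998 and 0.997), Slc6a8 by Chmp3, a subunit of the ESCRT-III complex, and the initiation factor Eif5 (r = 0.986 and 0.982), and Alpl by the F-box gene Fbxo45 and the nucleoporin Nup62 (r = 0.992 and 0.990). Among the creatine genes themselves the highest values were those of Gatm with Gamt (r = 0.871) and Ckb with Slc6a8 (r = 0.776), and the lowest that of Slc6a8 with Alpl (r = 0.0039, n = 6 cultures each).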

How the data were processed

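Libraries were made from total RNA with the TruSeq kit and read from a single end over 50 bases. With the Genomatix platform, the authors mapped the reads to mouse build GRCm38, counted only those with a unique position on known transcripts, and deposited the abundance as RPKM, 1 column per culture. Genotype and replicate number came from the sample titles, the numbers are not shared between genotypes, and nothing was paired. Cultures are independent per the series description.

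Of 168326 rows, the 28890 RefSeq rows were used. Rows with a mean of at least 0.5 RPKM (16865 transcripts of 12259 genes) were compared on log2(RPKM + 1) with limma 3.58.1 in R 4.3.3 (empirical Bayes with an intensity trend, no covariates, Benjamini-Hochberg threshold 0.05). For each gene an exact permutation test, two-sided, was added. Library totals were derived from Ensembl rows with GENCODE M21 lengths, between 93.4% and 93.6% of whose values were whole reads within 0.05. Of the whole multiples of length that give whole reads, that nearest the GENCODE length was taken. On simulated data, 6 of 6 library totals and the exact reads of 295 of 300 transcripts were recovered. The simulation did not cover the choice among multiples of length. No pair of cultures of the same genotype was alike within sampling noise (lowest chi-square per transcript 11.5).

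The members and gene lists were chosen with earlier results of these data known. Named genes are the 7 members, Ucp1, the genes of the lists given (2 of which are not reported here) and the 2 genes most like each member. Marker lists covered adipocytes, macrophages, endothelium, stroma, muscle, osteoblasts and glia. Alternatives were a constant of 0.1 RPKM, no minimum or a minimum of 1 RPKM, 1 transcript per gene, all annotations, median-of-ratios scaling, limma-voom on the recovered reads and leaving out each culture. Promoters and gene coordinates are from RefSeq (GRCm38.p6). Other steps used scipy 1.17.1, pandas 2.3.3 and numpy 2.4.6 in Python 3.11.15, and figures were drawn with matplotlib 3.10.9.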

Additional observations from a re-analysis of the deposited data

How the results depend on the processing

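Precision was limited by 3 cultures per genotype and by depth, with 12 reads of Gatm in the lowest culture and at most 3 reads of Ckmt1 and Ckmt2. No creatine gene had an adjusted p under 0.05 under any of the 7 alternatives or with any of the 6 cultures left out, where the lowest adjusted p was 0.415 (Ckb without WT replicate 10). Over all transcripts, 22 passed without a minimum mean and 0 otherwise. Left-out cultures gave log2 fold changes from -0.53 to -0.27 for Ckb, -0.22 to -0.13 for Slc6a8, -0.49 to 0.013 for Gamt, -0.56 to 0.27 for Gatm and -0.10 to 0.15 for Alpl. The other alternatives changed no sign, but Gatm went from -0.12 to -0.29 with 0.1 in place of 1 RPKM added. Without a minimum mean, the unadjusted p of limma was 0.0618 for Ckb and 0.0494 for Slc6a8 (adjusted p = 0.930 for both). Summing both RefSeq rows of Slc6a8, which can count the same reads, raised its level to 19.0 RPKM (WT) and 16.5 RPKM (Ucp1-KO), and 1 RefSeq row each made this sum equal to the level for the other 6 genes. The share of Ckb among the kinases stayed between 99.1% and 99.5% with single cultures left out. No paired analysis was possible because the genotypes share no replicate numbers.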

Other observations

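Ahcy, the hydrolase that removes the S-adenosylhomocysteine left by the Gamt reaction, was listed at 0.174 ± 0.0867 RPKM (WT) and 0.203 ± 0.0579 RPKM (Ucp1-KO, SD, n = 3 each). Of the stretches of 50 bases in its GENCODE transcript, 77.0% also occur in transcripts of 4 genes elsewhere in the genome. For Ass1, the argininosuccinate synthetase of arginine synthesis, this share was 55.3%, at 0.465 ± 0.253 and 0.494 ± 0.294 RPKM. The table counts uniquely identified reads, and the part of the shared stretches in these levels was not tested.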
